A study of Mus musculus with 4 samples.

Results

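Non-classical or patrolling monocytes are blood monocytes that crawl along the walls of small vessels. They arise from classical monocytes, a conversion that loses the surface marker Ly6C and depends on the nuclear receptor Nr4a1 (Nur77). In tumours and their metastases they have been described at the vessel wall, where they take up tumour material and can recruit natural killer (NK) cells. Here they were taken as the cells that carried RNA of Ace (angiotensin-converting enzyme, chr11:105967945-105989964 on GRCm38) together with RNA of Treml4, Ear2 or Adgre4. These genes are known from patrolling monocytes. There were 1126 such cells among 39906, made up of 339 of 10222 and 484 of 12092 cells of the WT libraries and 143 of 8205 and 160 of 9387 cells of the cKO libraries.

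The cells came from MC38 tumours, a mouse colorectal carcinoma line, grown under the skin after an injection of 100000 cells. The hosts were 8-week-old WT mice and mice that lack the ubiquitin ligase Trim25 conditionally (cKO), in T cells by the title of the series. There were 2 libraries per genotype. The sources used here do not give the driver of the deletion, the deleted exons or the number of animals behind a library. Both genotypes carried the same tumour line, and CD45-positive cells were sorted before droplet sequencing of transcript 3' ends. Since no label ties a library to its own animal, each p-value covers the spread among these 4 samples alone, and that spread may be technical. Levels are given as unique molecular identifiers (UMIs) per 1000000 of the summed UMIs of a class in 1 library (CPM), in the order WT-1, WT-2, cKO-1, then cKO-2.

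Members were required to have at least 5 UMIs of Lyz2, at least 1 of Ace and at least 2 of Treml4, Ear2 and Adgre4 together. They were allowed at most 1 UMI of Thbs1, 4 of Cxcl10, 1 of the Cd3 genes and 1 of Cd209a, and under 10 UMIs of the complement genes C1qa, C1qb and C1qc per 10000. At the edge of the Ace limit, 375 members had 1 UMI, and 874 cells that met every other condition had none. For the Treml4, Ear2 and Adgre4 sum, 72 members had 2 UMIs and 98 cells just outside had 1. For Cxcl10, 64 members had 4 UMIs and 35 cells just outside had 5. The classes set beside them were 1141 classical monocytes (the same limits, at least 2 UMIs of Ly6c2, and none of the 4 member genes) and 1562 C1q macrophages (at least 30 C1q UMIs per 10000, and none of the 4 member genes). Median depth per library was 9335 to 12999 UMIs in members and 8823 to 11256 in classical monocytes. It was 3284 to 5009 in C1q macrophages. The summed UMIs of the members were 3288348, 4954512, 1916944 and 1836925.

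The genes that chose the cells are given as a description. Ace stood at 283, 320.1, 232 and 248 CPM and Treml4, a receptor of the TREM family, at 223, 222, 216 and 185 CPM. Ear2, a ribonuclease, stood at 473, 649, 367 and 404 CPM and Adgre4, an adhesion G protein-coupled receptor, at 761, 775, 677 and 600.5 CPM. Ear2 belongs to a family of close copies between which counting can split reads, so its level is uncertain. T cells, defined by at least 3 Cd3 UMIs and none of Lyz2, should lack these genes. They stood at 1.14 ± 1.03 CPM for Ace and 2.36 ± 1.52 CPM for Adgre4 (mean ± SD, n = 4). Asking for no Lyz2 UMI also favours droplets with little free myeloid RNA, so these levels can understate it. Median depth of these T cells per library was 5695.5 to 6242 UMIs. The members held 2.75% of all UMIs of the kept cells, but 32.9% of the Ace and 30.9% of the Adgre4 UMIs.

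The label was checked with Nr4a1 (chr15:101254269-101274795 on GRCm38), a marker that took no part in the choice of cells. It stood at 1016, 942, 959 and 927 CPM in the members, 272, 296, 307 and 346 CPM in classical monocytes and 60.01, 76.2, 65.8 and 85.9 CPM in C1q macrophages. The 3 classes did not overlap in any library, and T cells were at 91.4 ± 28.8 CPM. Most members nevertheless held RNA of Ly6C, as 53.4%, 61.2%, 62.9% and 64.4% had at least 2 UMIs of its gene, Ly6c2. Markers of other cells were low or near the level of the other myeloid classes. The 8 T cell markers summed to 17.9 to 31.5 CPM in members and 35.9 to 60.4 CPM in classical monocytes. The 8 dendritic cell markers summed to 16.1 to 28.3 CPM, and the 8 markers of tumour or fibroblast-like cells to 4.36 to 14.1 CPM, with Krt18 at 0 in every library. The 6 plasmacytoid dendritic cell markers, Bst2 among them, summed to 540.0 to 606.9 CPM in members and 478.5 to 732.3 CPM in classical monocytes. The 8 markers of erythroid cells and platelets summed to 7.62 to 11.5 CPM in members, with Ppbp and Gp9 at 0, and the 6 markers of mast cells and basophils to at most 0.404 CPM, with Cpa3, Mcpt8, Fcer1a and Mcpt4 at 0. The 8 C1q macrophage markers summed to 1050.6 to 1111.7 CPM in members and 11143 to 13382 CPM in C1q macrophages. The 6 B cell markers summed to 122.9 to 136.6 CPM in members and 91.7 to 125.7 CPM in classical monocytes. NK and neutrophil markers are given beside the results they touch.

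Members were a smaller share of the sorted cells in both cKO libraries. They were 3.32% of cells in WT-1 (exact Clopper-Pearson 95% interval 2.98 to 3.68), 4.003% in WT-2 (3.66 to 4.37), 1.74% in cKO-1 (1.47 to 2.05) and 1.70% in cKO-2 (1.45 to 1.99). Both cKO libraries lay below both WT libraries, with 1.72% ± 0.0271 against 3.66% ± 0.485 (SD, n = 2), a ratio of WT to cKO of 2.12. The difference of -1.94 percentage points gave p = 0.33 in a two-sided exact permutation test, the smallest p that 2 libraries against 2 allow. The intervals cover counting error only.

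Further denominators were taken because a share of all cells moves with every other population. Among both monocyte gates together, members made up 49.8%, 59.8%, 39.9% and 38.3%, a difference of -15.7 points (exact permutation p = 0.33). Among Lyz2-positive cells with little C1q RNA they made up 10.1%, 13.7%, 7.87% and 6.31%. After every cell was thinned to 5000 UMIs they made up 3.504%, 4.35%, 1.79% and 1.65%. Thinning left out 3772, 4445, 3129 and 2884 shallower cells. The cKO libraries were below the WT libraries with each of these denominators. Classical monocytes did not show this order: they made up 3.35%, 2.70%, 2.62% and 2.75% of cells (exact permutation p = 0.667), and the groups overlapped. C1q macrophages made up 3.55%, 3.19%, 5.27% and 4.06%, with both cKO libraries above both WT libraries (exact permutation p = 0.33). Whether the member share and the other shares differed in their genotype effect was not tested.

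The size of the difference in points followed the gate, while the ratio moved little. Without the Cxcl10 limit the shares were 5.68%, 6.83%, 2.69% and 3.29%. Without the Thbs1, Cxcl10, C1q and Cd209a limits they were 7.74%, 8.85%, 4.23% and 4.87%. With at least 2 Ace UMIs and 4 UMIs of the other 3 genes they were 1.91%, 2.51%, 1.22% and 1.01%. The ratio of cKO to WT was 0.478, 0.548 and 0.505 under these gates, against 0.471 with the gate as given. The limits on Cxcl10 and the other genes thus set how many cells were counted, and no gate brought the groups to overlap.

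**Figure D1:**
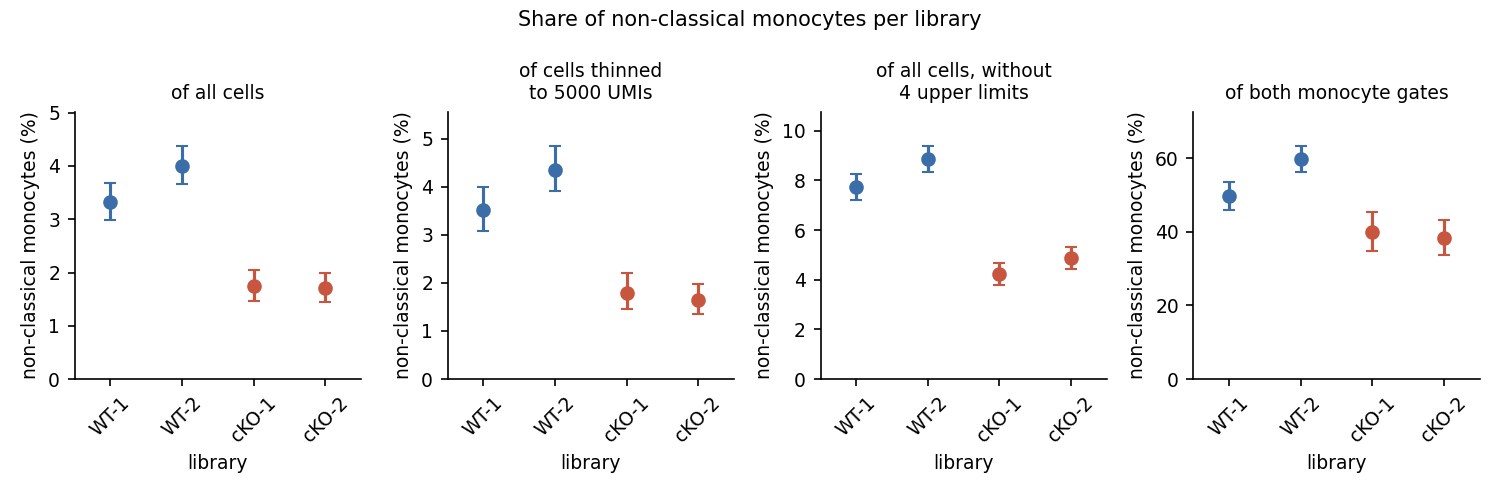
Share of non-classical monocytes in each library, in percent, with exact 95% binomial intervals, for 3 gates or depths among all cells and among both monocyte gates. In every panel the cKO libraries lie below the WT libraries, for instance at 1.74% and 1.70% against 3.32% and 4.003% of all cells.

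Against classical monocytes the members showed higher levels of most known patrolling monocyte genes and lower levels of most classical monocyte and glycolysis genes. Sums of 2 classes in 4 libraries were compared with edgeR's quasi-likelihood test, with library as a block and Benjamini-Hochberg adjustment. Genes of either gate were left out. Of 10559 genes tested, 3048 changed (28.9%), 1603 of them higher in members (15.2%) and 1445 lower (13.7%). The classes were cut from the same libraries by a few genes, so these differences describe what goes with the gate genes. A value after ± beside a log2 fold change is its standard error.

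Of the 25 patrolling monocyte genes outside the gate, 24 rose and none fell, with a median log2 fold change of 1.75 against -0.02 over all genes. This list was drawn up with earlier results of these data known. The largest change among genes of at least 50 CPM was in Slc12a2, the sodium, potassium and chloride cotransporter NKCC1. It stood at 145, 122, 89.2 and 74.04 CPM in members and at 1.71, 1.24, 1.91 and 0.658 CPM in classical monocytes, with a log2 fold change of 6.36 ± 0.19. Cd36, a scavenger receptor for fatty acids and oxidised lipoprotein (chr5:17781690-17888801 on GRCm38), stood at 224, 156, 154 and 206 CPM against 4.86, 5.26, 6.88 and 5.59 CPM, with a log2 fold change of 5.13 ± 0.14. Neither gene's classes overlapped in any library, and C1q macrophages were low in both (Slc12a2 3.36 ± 1.57 and Cd36 16.8 ± 8.996 CPM). Members held 27.2% of all Slc12a2 and 27.0% of all Cd36 UMIs of the series. They also held 30.8% of the UMIs of Hpgd, the dehydrogenase that inactivates prostaglandin E2, which stood at 262, 323, 184 and 250.4 CPM against 21.99, 18.9, 11.8 and 27.6 CPM. Of the listed genes, Itgax (CD11c) alone did not pass, at 77.9, 84.8, 136 and 74.6 CPM in members and 87.1, 74.3, 138 and 94.7 CPM in classical monocytes.

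The other 12 of the 15 largest increases had log2 fold changes of 2.33 to 2.98. They included Cd300e, an activating receptor of monocytes (2.98), the iron regulator Hfe (2.94) and Pparg, a lipid-sensing nuclear receptor (2.84). Cyth3, an exchange factor of ARF proteins, rose by 2.79 and Grk3, a kinase of G protein-coupled receptors, by 2.62. The adhesion molecule Ceacam1 stood at 522, 483, 429.9 and 382 CPM against 98.2, 64.7, 81.03 and 75.96 CPM (2.60). Spn encodes CD43, the surface protein often used to sort these cells, and stood at 140.5, 179, 145 and 123 CPM against 21.1, 37.4, 22.9 and 24.01 CPM (2.58). The remaining genes were Nxpe4 (2.60), Heg1 (2.56), the MAP kinase phosphatase Dusp16 (2.36), the peptidoglycan-binding Pglyrp1 (2.36) and the G protein subunit Gngt2 (2.33).

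**Figure D2:**
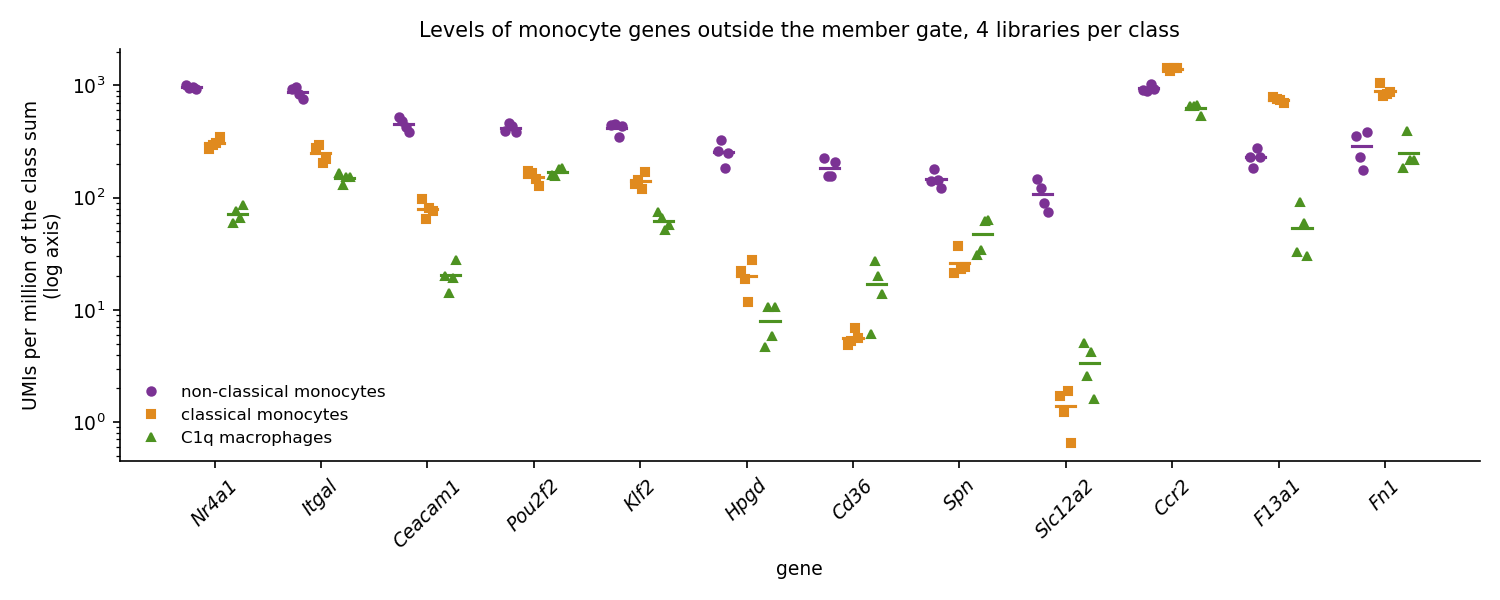
Levels of 12 monocyte genes outside the member gate, in CPM on a log axis, with 1 point per library and a bar at the mean, for members, classical monocytes and C1q macrophages. Members lie above both other classes for the genes from Nr4a1 to Slc12a2, and classical monocytes lie above members for Ccr2, F13a1 and Fn1.

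Transcription factors of the non-classical programme were among the genes that rose. Of 25 monocyte transcription factors, 13 rose and 4 fell, with a median log2 fold change of 0.32 (0.20 without cKO-1). Nr4a1 rose by 1.75 ± 0.07 on the log2 scale. Hes1, a target of Notch signalling, stood at 167, 126, 132 and 134 CPM against 52.3, 36.8, 37.1 and 44.7 CPM (1.80 ± 0.09). Klf2, which controls leukocyte trafficking, stood at 443, 456, 347 and 431 CPM against 131, 144, 120.0 and 169.7 CPM (1.67 ± 0.08). Pou2f2 rose by 1.55 ± 0.08 and Klf4 by 1.30 ± 0.08, and Tcf7l2 by 1.08 ± 0.13. Among the 4 that fell were Rbpj (-0.82), the DNA-binding partner of Notch, Id2 (-0.52) and Irf8 (-0.32). Leaving out WT-2 left 2 that fell, as did keeping only cells with at most 1 UMI each of NK, B cell and neutrophil markers.

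Among 21 genes of adhesion, crawling and trafficking, 11 rose and 4 fell, with a median of 0.35. Itgal, the alpha chain of LFA-1, the integrin by which patrolling monocytes hold on to endothelium, stood at 920.2, 963, 832 and 759 CPM against 277, 294, 205 and 223 CPM. Its log2 fold change was 1.90 ± 0.07. Rap1gap2, which switches off the small GTPase Rap1, rose by 1.79 ± 0.09, and Itga4, the alpha chain of VLA-4, by 1.14 ± 0.07. Cx3cr1, the fractalkine receptor used to track these cells, stood at 477, 456, 503 and 394 CPM in members and 242, 186, 237 and 193 CPM in classical monocytes, a log2 fold change of 1.19 ± 0.07. In C1q macrophages it stood at 523, 520.0, 425 and 461 CPM, which overlapped the members' levels (log2 fold change 0.04 ± 0.08, adjusted p 0.718). The chemokine receptors Ccr1 (-1.76 ± 0.08) and Ccr2 (-0.48 ± 0.06) fell.

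Classical monocyte genes fell only in part. Of 18 tested, 11 fell, 2 rose and 5 did not pass, with a median of -0.45. The coagulation subunit F13a1 stood at 230.2, 183, 275 and 231 CPM against 795, 763, 736 and 700.4 CPM (-1.63 ± 0.09), and fibronectin, Fn1, at 356, 231, 178 and 383 CPM against 1044, 802, 846 and 869.8 CPM (-1.59 ± 0.12). Mmp8, a collagenase, fell by 1.39 and Vcan, a proteoglycan, by 0.98 on the log2 scale. Ccr2 was lower but abundant, at 917, 897, 1038 and 936 CPM in members and 1424, 1332, 1431 and 1427 CPM in classical monocytes, with no overlap. The 2 genes that rose were Plac8, at 6711, 7541, 6377 and 7517 CPM against 5609, 5122, 3802 and 5419.7 CPM, and the lectin Clec4e (0.42). Clec4e overlapped between the classes, at 122, 219, 254 and 201 CPM against 142, 156, 156 and 159 CPM. Without WT-1, 5 genes of this list rose, and 1 rose when any other library was left out or in cells with few UMIs of NK, B cell and neutrophil markers. The 7 neutrophil markers summed to 209.8, 259.4, 358.9 and 232.5 CPM in members and 319.0, 134.3, 125.7 and 165.1 CPM in classical monocytes, higher in members in all libraries but WT-1. Their part in the genes that rose was not tested.

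Most survival genes were higher in members. Of 19 genes of survival and apoptosis, 12 rose and 2 fell (1 without WT-2), with a median of 0.33. Bcl2, the inhibitor of apoptosis, stood at 217, 234, 204 and 156 CPM against 91.1, 119, 118 and 117 CPM (0.96 ± 0.11), and its relative Bcl2l1 at 11.6, 18.2, 13.6 and 16.3 CPM against 35.7, 33.7, 42.8 and 32.9 CPM (-1.18 ± 0.17). These related inhibitors of apoptosis thus went opposite ways. Csf1r, the receptor for the growth factor that keeps monocytes alive, stood at 578, 576, 577 and 588 CPM, close to equal in the 4 libraries, against 346, 297, 378 and 344 CPM (0.86 ± 0.07). Birc3 rose by 0.96 ± 0.07.

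Receptors for particles and nucleic acids were split. Of 19 genes of Fc receptors, scavenging and phagocytosis, 6 rose and 7 fell. Fcgr4, the Fc receptor of patrolling monocytes, rose by 0.69 ± 0.10, with 197, 198, 171 and 224 CPM against 148, 109, 139.9 and 126 CPM, and was higher still in C1q macrophages (367, 290.4, 332 and 406 CPM). The receptors of apoptotic cells Mertk (-1.97 ± 0.24) and Axl (-0.78 ± 0.09) fell. Of 19 pattern receptors and their partners, 6 rose and 3 fell. The endosomal receptors of single-stranded RNA Tlr7 (1.24 ± 0.11) and of bacterial ribosomal RNA Tlr13 (0.77 ± 0.10) rose, together with Tlr2, Tlr8, Irak3 and Nod2. Tlr7 stood at 149, 150.2, 113 and 151 CPM against 81.7, 70.3, 47.8 and 54.3 CPM, with no overlap.

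Antigen presentation was unevenly distributed between the classes. Of 22 genes of the interferon gamma response and antigen presentation, 14 fell and 4 rose, with a median of -0.46. The class II chain H2-Ab1 stood at 500.3, 475, 817 and 645 CPM against 674, 987, 1526 and 1237 CPM (-0.74 ± 0.08). H2-Aa, H2-Eb1, H2-DMa, H2-DMb1, Cd74 and Ciita also fell, whereas the class I genes B2m, H2-K1 and H2-D1 and the factor Irf1 (0.89 ± 0.09) rose. Of 23 type I interferon response genes 6 fell and Ly6e rose. When WT-1 was left out 6 rose, and when any other library was left out none did. Cxcl10, which itself is induced by interferons, was capped in both gates.

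Of 15 checkpoint ligands and partners of VISTA (Vsir), an inhibitory ligand, 4 rose and 3 fell. Cd274, which encodes PD-L1, stood at 177, 222, 221 and 181 CPM against 132, 75.8, 107 and 143 CPM (0.93 ± 0.16). Havcr2 (TIM-3) rose by 0.65 ± 0.09, Sirpa by 0.62 ± 0.08 and Pilra by 0.45 ± 0.08. Vsir itself was at 135, 115, 114 and 122 CPM in members and 144, 142, 133 and 122 CPM in classical monocytes, with overlapping levels (log2 fold change -0.06 ± 0.08, adjusted p 0.627). Of 23 cytokine and chemokine genes, 11 fell and 4 rose (Ccl3, Ccl6, Il1b and Tgfb1). Il1b stood at 1726, 1699, 3655 and 2586 CPM against 1416, 997, 2248 and 1897 CPM (0.64 ± 0.07). Each library was higher in its members than in its classical monocytes. The part of neutrophil RNA in this was not tested.

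Most glycolysis genes were lower in members. Of 19 genes of glycolysis and hypoxia, 14 fell and none rose, with a median of -0.52. Of 18 genes of oxidative phosphorylation, 6 fell and 1 rose. Of 20 proliferation genes, 11 fell and none rose, with a median of -0.74. This last count was 2 of 19 without WT-2, 7 of 20 with the stricter gate and 4 of 20 with DESeq2. It was 6 of 20 without cKO-2, with a median of -0.46, and 3 of 19 in cells with few UMIs of NK, B cell and neutrophil markers, with a median of -0.22. Of 21 immediate early and stress genes, which can also respond to tissue dissociation, 14 rose and 2 fell, with a median of 0.39, and none fell without WT-1. What dissociation added to these genes, Nr4a1 among them, was not tested.

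Among the 15 largest decreases, 4 were genes of NK cells or cytotoxic lymphocytes: Gzmc (-3.30), Xcl1 (-2.88), Gzmb (-2.25) and Klrd1 (-1.77). The 8 NK markers summed to 137.8, 116.9, 208.7 and 153.5 CPM in members but 241.9, 1014.5, 313.4 and 784.3 CPM in classical monocytes. Cells with 2 or more NK UMIs were 2.06% to 8.75% of members and 6.43% to 15.6% of classical monocytes by library. With cells of at most 1 UMI each of NK, B cell and neutrophil markers, the log2 fold change of Gzmc was -0.05 (adjusted p = 0.814), of Xcl1 -0.02 (0.960) and of Gzmb 0.04 (0.857), and of Klrd1 -1.28 (0.0017). Since these cells were kept for few NK UMIs, values of NK genes nearer 0 are in part set by that choice. The other 11 decreases kept their call with these cells. They included Emp1 (-2.98), the secreted glycoprotein osteopontin, Spp1 (-2.77), cyclin D1, Ccnd1 (-2.09), and the galectin Lgals1 (-1.74). Spp1 stood at 42.6, 84.8, 81.9 and 21.2 CPM against 370.4, 328, 782 and 263 CPM, and Ccnd1 at 33.1, 28.9, 38.6 and 40.3 CPM against 150.2, 133, 167 and 189 CPM, with no overlap for either.

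**Figure D3:**
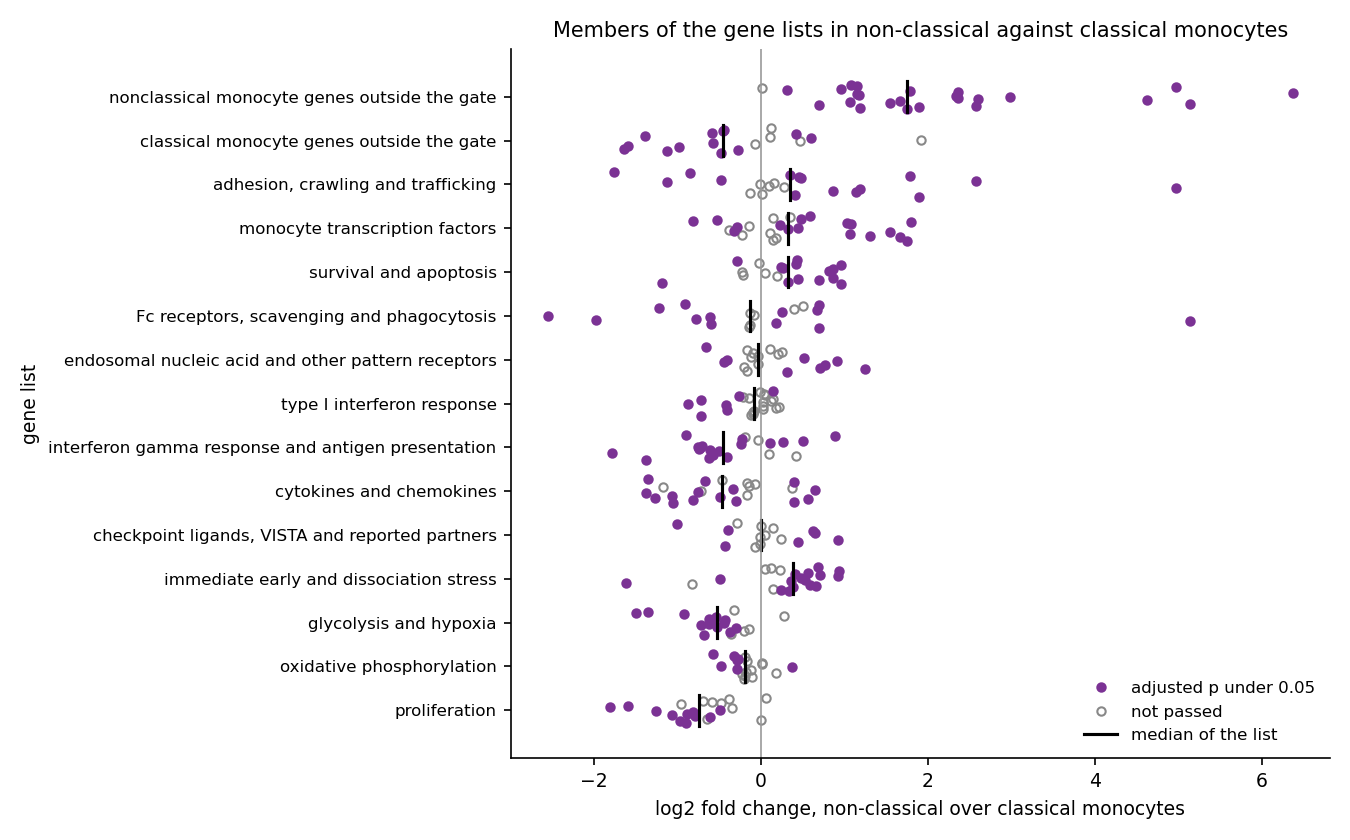
Log2 fold change of non-classical over classical monocytes for the tested genes of 15 lists, with 1 point per gene, filled where the adjusted p was under 0.05, and a bar at the median of the list. The list of patrolling monocyte genes lies to the right, with a median of 1.75, and glycolysis lies to the left, at -0.52.

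Against C1q macrophages the distance was larger. Of 10663 genes tested in the same way, 6005 changed (56.3%), 2956 higher in members (27.7%) and 3049 lower (28.6%). Of the 25 patrolling monocyte genes, 21 rose and 3 fell, Fcgr4 (-0.70 ± 0.08), Lair1 (-0.65 ± 0.07) and Itgax (-1.16 ± 0.12). Of 19 classical monocyte genes 15 rose and Cd93 fell. Relative to their UMI totals, members thus held more RNA of most genes of both monocyte lists than macrophages did. Their depth was over that of the macrophages in each library, and its part in these values was not tested.

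The largest increases against macrophages were in Slc12a2 (5.09 ± 0.17), Hpgd (5.08 ± 0.14) and Hp, the haemoglobin scavenger haptoglobin (5.00 ± 0.22). Hp stood at 124, 154, 118 and 155 CPM in members, 142, 168, 95.9 and 138 CPM in classical monocytes and 7.59, 6.56, 3.66 and 1.61 CPM in macrophages. The signalling enzyme Plcb1 stood at 659, 374, 371 and 567 CPM against 37.6, 17.1, 11.5 and 17.7 CPM in macrophages (4.73 ± 0.13), and the lectin-like receptor Olr1 at 109, 253, 257 and 158 CPM against 2.53, 6.19, 5.06 and 19.5 CPM (4.61 ± 0.29). The other 10 of the 15 had log2 fold changes of 4.13 to 4.69. They were Arhgef37, Ceacam1, Dgkg, Grk5, Ifitm6, Ldlrad3, Mgst1, coagulation factor F10, Heg1 and Vcan.

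The largest decreases were in Cadm1 (-5.12 ± 0.27), the chemokine Pf4 (-5.07 ± 0.16) and Ch25h, which makes 25-hydroxycholesterol (-4.94 ± 0.16). Cadm1, an adhesion molecule, was at 3.35, 4.64, 2.09 and 21.8 CPM in members, with cKO-2 apart, and at 253, 235, 243 and 287 CPM in macrophages. Pf4 stood at 9.12, 6.86, 4.17 and 5.99 CPM against 266, 349, 168 and 127 CPM. The tetraspanins Cd81 (-4.11 ± 0.11) and Cd63 (-4.38 ± 0.12) and the monocyte chemokines Ccl7 (-3.92 ± 0.19) and Ccl12 (-3.67 ± 0.09) were also far lower. The other 8 of the 15 fell by 3.58 to 4.67 on the log2 scale: Pmepa1, Arhgap22, Itga6, Ms4a7, Hpgds, Zmynd15, Tmem119 and Tanc2.

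All 20 proliferation genes fell against macrophages, with a median of -2.27. Of 19 genes of Fc receptors, scavenging and phagocytosis, 14 fell and 4 rose (Cd36, Tyrobp, Syk and Abcg1). Class II genes were lower, H2-Eb1 standing at 356, 389.9, 609.8 and 481 CPM against 3896, 3629, 2847 and 3010.3 CPM (-2.77 ± 0.15), and of 22 genes of its list 13 fell and 5 rose. In the other direction 16 of 23 type I interferon genes rose and 2 fell, 11 of 18 pattern receptors rose and 4 fell, and 16 of 20 immediate early genes rose while Egr2 fell. The pattern receptors that fell were 1 without WT-2 and 2 without WT-1 or without cKO-2. Of 25 transcription factors 16 rose and 5 fell, of 22 adhesion genes 14 rose and 4 fell, and of 19 survival genes 12 rose and 5 fell. Of 16 checkpoint genes 9 rose and 4 fell (2 of 15 without WT-1), and of 24 cytokines 8 rose and 11 fell. Of 19 glycolysis genes 12 fell and 3 rose (Hk1, Pfkp and Slc16a3), and of 18 oxidative phosphorylation genes 8 fell and 2 rose (Ndufa4 and Uqcrh). Trim25 stood at 178, 236, 184 and 188 CPM in members, 215, 171, 165 and 176 CPM in classical monocytes and 83.9, 105, 78.8 and 103 CPM in macrophages, higher in members than in macrophages by 1.20 ± 0.09.

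The members varied along Ly6c2, the gene of Ly6C, which had no part in choosing them. No Ly6c2 UMI was found in 112, 106, 34 and 34 members and at least 2 were found in 181, 296, 90 and 103. The share with none was 33.0%, 21.9%, 23.8% and 21.3%, so the genotypes overlapped (exact permutation p = 0.667). The share with at least 2 was 53.4%, 61.2%, 62.9% and 64.4%, with both cKO libraries above both WT libraries (exact permutation p = 0.33). Median depth was 10422.5 to 14290.5 UMIs by library in members with Ly6c2 and 6733.5 to 9467 in those with none. A cell read less deeply is more likely to show no Ly6c2 UMI, and how much depth sets these subsets was not tested.

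Between these subsets 468 of 8424 genes changed (5.56%), 218 higher with Ly6c2 (2.59%) and 250 lower (2.97%), by edgeR's quasi-likelihood test with library as a block. Classical monocyte genes went with Ly6c2 and patrolling monocyte genes against it. Of 18 classical genes 13 rose and 3 fell, with a median log2 fold change of 0.82 against -0.01 over all genes. The genes that fell were S100a8, S100a9 and Clec4e, and none of the list fell without WT-2 or without cKO-1. Of 25 patrolling monocyte genes 19 fell and none rose, with a median of -0.53.

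Members with Ly6c2 had more Slpi, a protease inhibitor of phagocytes, at 80.97, 102, 72.3 and 119.5 CPM against 15.7, 10.4, 24.1 and 11.8 CPM (2.61 ± 0.27). Fn1 stood at 489, 294, 227 and 476 CPM against 121, 68.7, 78.5 and 114 CPM (1.97 ± 0.13), and Chil3, a chitinase-like protein, at 1582, 1456, 936 and 1142 CPM against 559, 358, 281 and 228 CPM (1.85 ± 0.11). No library of one subset reached the other in these 3 genes. Vcan (2.33 ± 0.24), F13a1 (1.97 ± 0.25), Mmp8 (1.89 ± 0.42), Cxcl9 (1.76 ± 0.25), Spon1 (1.71 ± 0.20) and Frmd4b (1.57 ± 0.34) were also among the 10 largest increases. The call of Mmp8 was lost without WT-1 (adjusted p = 0.106) or WT-2 (0.148), and that of Frmd4b without cKO-1 (0.0517). Ccr2 rose by 0.73 ± 0.08. Of 23 type I interferon genes 11 rose and none fell, such as Isg15 (0.86 ± 0.13), and 5 rose without WT-2.

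Several genes that set the class apart from classical monocytes were highest in members with no Ly6c2 UMI. Slc12a2 stood at 301, 284, 269 and 271 CPM in them and at 64.6, 74.4, 38.8 and 36.2 CPM in members with Ly6c2 (-2.36 ± 0.16). Pparg stood at 322, 311, 347 and 369 CPM against 46.6, 99.4, 55.9 and 57.96 CPM (-2.36 ± 0.17). Fabp4, a fatty acid-binding protein, stood at 118, 278, 154 and 197 CPM against 27.7, 51.2, 18.6 and 16.7 CPM (-2.65 ± 0.20). The subsets did not overlap for any of these 3 genes, of which Pparg and Fabp4 belong to lipid handling. Cd36 stood at 565, 311, 244 and 499 CPM against 54.8, 92.6, 106 and 109 CPM (-2.15 ± 0.22), Bcl2 at 341, 329, 383 and 330.2 CPM against 121, 175, 134 and 110.1 CPM (-1.34 ± 0.13), and Nr4a1 at 1136, 1209, 1201 and 1372 CPM against 908, 832, 807 and 823 CPM (-0.53 ± 0.08). Setbp1 (-3.06 ± 0.19), the lymphoid factor Ikzf3 (-2.48 ± 0.23) and Tgfbr3 (-2.47 ± 0.28) were also among the 10 largest decreases. Cx3cr1 did not pass, at 565, 454, 479.8 and 338 CPM against 443, 408, 529 and 399.9 CPM.

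The other 4 of the 10 largest decreases were genes of neutrophils or NK cells. S100a8 stood at 1.12, 156, 386 and 0 CPM in members with no Ly6c2 UMI, so WT-2 and cKO-1 alone were high, and its call (-3.54 ± 0.65) was lost without either of them. S100a9 (-3.37 ± 0.69) showed the same. The 7 neutrophil markers, these 2 included, summed to 137.0, 765.1, 1255.3 and 369.5 CPM in this subset and to 169.6 to 237.8 CPM in members with Ly6c2. Gzma (-2.62 ± 0.48) and Klre1 (-2.40 ± 0.47) are themselves among the 8 NK markers. These markers summed to 394.1, 95.96, 341.0 and 601.3 CPM with no Ly6c2 UMI and 29.7, 138.2, 38.8 and 86.9 CPM with Ly6c2. The sum in WT-2 thus went the other way. Without cKO-1 Gzma was at -2.18 (adjusted p = 0.0604). The C1q macrophage markers were also higher with no Ly6c2 UMI, at 1397 to 2118 CPM against 876.4 to 1021 CPM. Their part in the other results was not tested. In the cells with few UMIs of the lymphocyte and neutrophil markers 447 genes changed.

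**Figure D4:**
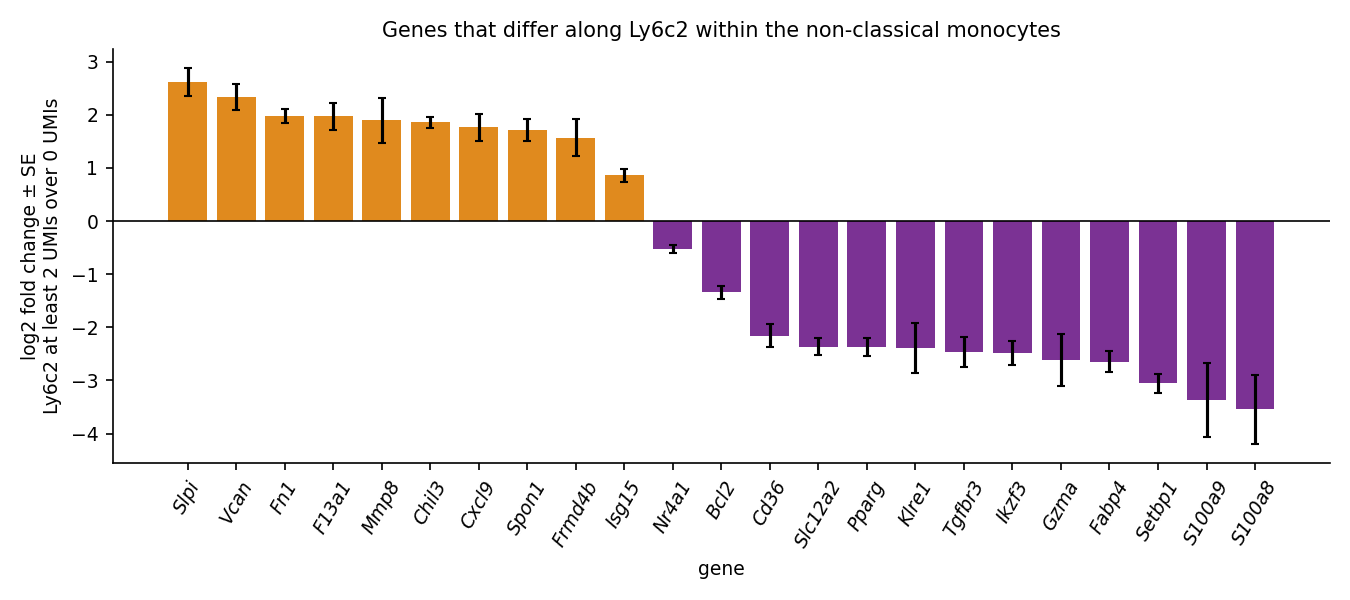
Log2 fold change with its standard error of members with at least 2 Ly6c2 UMIs over members with none, for genes among the 10 largest increases and the 10 largest decreases and for Isg15, Nr4a1, Bcl2 and Cd36. Classical monocyte genes such as Vcan and Fn1 lie above 0, and Slc12a2, Pparg, Fabp4 and Setbp1 lie below -2.

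Of the other lists along Ly6c2, adhesion had 4 genes that rose and 8 that fell of 21, among them Itgal (-0.46 ± 0.08) and Spn (-0.94 ± 0.15), and 5 of 20 fell without WT-2. Of 24 transcription factors 1 rose and 6 fell, namely Nr4a1, Klf2, Klf4, Pou2f2, Tcf7l2 and Bcl6, and 3 fell without WT-2 or without cKO-1. Of 19 survival genes 5 fell and 1 rose, and 3 fell and none rose without WT-2. Of 22 cytokines 7 rose, and 4 rose without WT-1 or without cKO-1. Of 22 genes of the interferon gamma list 3 rose and 3 fell, but 1 rose without WT-2 or without cKO-1, and 1 fell without WT-1 or without WT-2. Of 17 genes of Fc receptors and scavenging 4 rose and 4 fell, but 1 rose and 1 fell without WT-2, and 1 fell without WT-1. Of 15 checkpoint genes 3 rose, and 1 without WT-1 or without WT-2. No proliferation gene of 13 and no oxidative phosphorylation gene of 18 passed in this edgeR test, though 1 proliferation gene of 12 fell without WT-2. Pkm alone passed of 20 glycolysis genes, and none did without WT-1 or without WT-2. Irf7 and Tmem173 rose among 18 pattern receptors, and 1 gene did whichever library was left out. Dusp2 and Nfkbia fell among 20 immediate early genes, 1 when either WT library was left out and none when either cKO library was.

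Between the genotypes 1 gene passed the test in the members. Trim25, the targeted gene, was at 178, 236, 184 and 188 CPM, with a log2 fold change of cKO over WT of -0.14 ± 0.16 (adjusted p = 0.972 by edgeR's quasi-likelihood test), and its groups overlapped. The deletion is placed in T cells, so this level in monocytes does not check the labels. Vsir was at 135, 115, 114 and 122 CPM (-0.06 ± 0.15, adjusted p = 0.991). Of 9398 genes tested, 1 rose (0.0106%) and none fell. An unadjusted p under 0.05 was found for 468 genes, no more than that many tests give if no gene changes. In simulated counts of this size the test recovered 89 of 100 genes changed by 1 on the log2 scale and 100 of 100 changed by 2. The 200 changed genes were drawn from those of at least 20 CPM, and each gene's spread followed its level alone. Many changed genes also ease the adjustment, so these rates can overstate what the test finds where few genes change.

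The gene that rose was Il1r2, the decoy receptor that binds interleukin 1 without signalling (chr1:40074079-40125231 on GRCm38). It stood at 22.8, 23.6, 64.2 and 77.8 CPM, so both cKO libraries were higher, with a log2 fold change of 1.63 ± 0.19 (adjusted p = 0.0415 by edgeR). In classical monocytes it was more abundant, at 105, 96.9, 163 and 115 CPM. The genotype effect in members minus that in classical monocytes was 1.20 ± 0.26 on the log2 scale and did not pass (adjusted p = 0.82 by edgeR). Neutrophils also express Il1r2, and the 7 neutrophil markers summed to 209.8, 259.4, 358.9 and 232.5 CPM in the members. The part of neutrophil RNA in the Il1r2 difference was not tested. At least 2 UMIs of the neutrophil markers Retnlg and Cxcr2 were found in 0, 4, 2 and 1 members. At least 2 NK UMIs were found in 7, 37, 10 and 14. In cells with few NK, B cell and neutrophil UMIs the log2 fold change was 1.45 (adjusted p = 0.172). The call was also lost with the stricter gate (0.84, adjusted p = 0.945), without the Cxcl10 limit (1.01, adjusted p = 0.501), and with the replicate number as a block (1.63, adjusted p = 0.215). It was kept when any 1 library was left out (1.48 to 1.76). By DESeq2 10 genes rose, Il1r2, Cd74, Dab2, Dusp2, H2-Ab1, Il1b, Mpp7, Ptgs2, Rgs1 and mt-Nd2, and none fell.

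The 10 genes of next smallest p had adjusted p-values of 0.195 to 0.23 and did not pass. Il1b, the cytokine that Il1r2 binds, stood at 1726, 1699, 3655 and 2586 CPM (0.89 ± 0.15), and Cd74, the invariant chain of MHC class II, at 958, 1073, 1721 and 1512 CPM (0.69 ± 0.12). Ptgs2, which makes prostaglandins, stood at 122, 109, 185 and 198 CPM (0.75 ± 0.14), and Vegfa, the endothelial growth factor, at 8.82, 10.1, 41.2 and 27.2 CPM (1.86 ± 0.28). The others were Mpp7 (0.86), the signalling regulator Rgs1 (0.77), Tmem176b (0.75), the phosphatase Dusp2 (0.90), the endocytic adaptor Dab2 (1.21) and the complement receptor C3ar1 (0.74). Under the stricter gate Dab2 was at 0.19 and C3ar1 at -0.29, and the direction of C3ar1 turned.

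**Figure D5:**
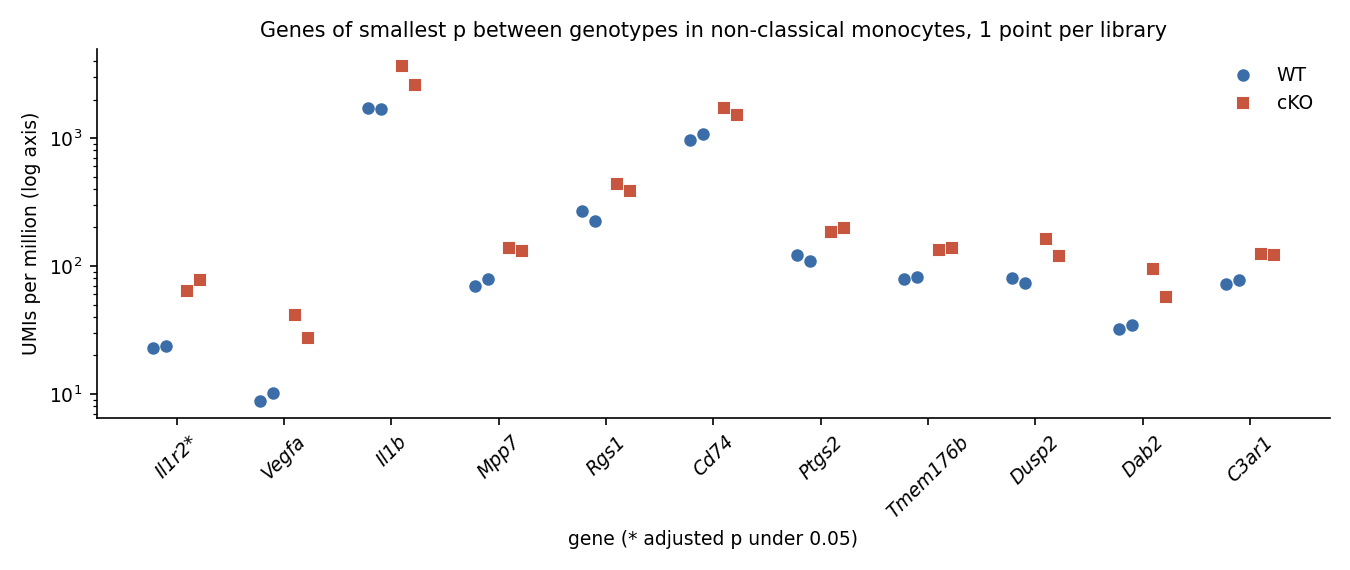
Levels in the members of Il1r2 and of the 10 genes of next smallest p between the genotypes, in CPM on a log axis, with 1 point per library. Il1r2, at 22.8 and 23.6 CPM in WT and 64.2 and 77.8 CPM in cKO, alone passed the test, and the genes were chosen by p, so the distance between the groups supports nothing.

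None of the genes of the 15 lists passed between genotypes in this edgeR test, against 0 to 4 of a list with 1 library left out, and the lists are described by their order and medians. Over all genes tested, both cKO libraries lay above both WT libraries for 14.8% of genes and below them for 19.7%, and the median log2 fold change was 0.01. For glycolysis and hypoxia 10 of 19 genes lay above and 1 below, with a median of 0.19. Its median was 0.33 without WT-2 and 0.30 without cKO-2. For cytokines and chemokines the numbers were 7 and 1 of 23, with a median of 0.17 that was 0.0014 without cKO-2, 0.30 without WT-1 and 0.28 without cKO-1. Of 22 genes of the interferon gamma list, 6 lay above and none below. These 6 belonged to MHC class II, namely Ciita, H2-Aa, H2-Ab1, H2-Eb1, H2-DMb1 and Cd74. H2-Ab1 stood at 500.3, 475, 817 and 645 CPM (0.61 ± 0.14, adjusted p = 0.435 by edgeR).

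For the patrolling monocyte genes 1 of 25 lay above and 9 below, with a median of -0.08 that was -0.13 without WT-1 and -0.14 without cKO-2. The 9 were Itgal, Klf2, Eno3, Ceacam1, Slc12a2, Rap1gap2, Bcl2, S1pr5 and Tcf7l2, and Slc12a2 stood at 145, 122, 89.2 and 74.04 CPM (-0.69 ± 0.16, adjusted p = 0.45 by edgeR). Of 19 proliferation genes, 8 lay below and none above, with a median of 0.01. With 1 library left out that median lay between -0.47 (without cKO-1) and -0.01. Of 15 checkpoint genes, 5 lay above and none below, Cd80, Cd86 and Pdcd1lg2 among them. The median of that list was 0.06, with 0.05 without WT-1 and 0.21 without WT-2. Type I interferon genes showed 1 above and 1 below of 23. Their median was 0.05, with -0.14 without WT-1 and 0.31 without WT-2. The other lists had medians between -0.01 and 0.12, and between -0.12 and 0.21 with 1 library left out. Their numbers above and below were 2 and 5 of 21 for adhesion, 5 and 6 of 25 for transcription factors, 3 and 3 of 19 for survival and 3 and 2 of 19 for classical genes. They were 4 and 0 of 18 for Fc receptors and scavenging, 3 and 3 of 18 for pattern receptors, 4 and 2 of 20 for immediate early genes and 4 and 1 of 18 for oxidative phosphorylation.

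Whether the genotype effect in members differed from that in classical monocytes was tested as an interaction of class and genotype. None of 10559 genes passed (0.0%) by edgeR's quasi-likelihood test. An unadjusted p under 0.05 was found for 454, no more than that many tests give if no effect differs. In simulated counts made in the same way, with the same limits, this test recovered 63 of 100 genes whose effects differed by 1 on the log2 scale. Il1b stood at 1416, 997, 2248 and 1897 CPM in classical monocytes, and the difference of its genotype effects was 0.08 ± 0.15. Cd74 stood at 1023, 1390.3, 2023 and 2304 CPM there, with a difference of -0.15 ± 0.14. Rgs1 differed by 0.64 ± 0.14 and Tmem176b by 0.74 ± 0.20, neither past the threshold after adjustment. None of the genotype differences named above was shown to be particular to the non-classical monocytes.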

How the data were processed

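Immune cells were measured in 4 libraries, 2 per genotype. Each deposited matrix holds raw UMI counts (genes by barcodes) as whole numbers. The submitters' processing notes name Cell Ranger, STAR and mm10. Versions, annotation and cell-calling settings were not given in the sources used here. Whether empty droplets remain was not tested. Libraries held 96751399, 127449324, 101176581 and 115111783 UMIs in 10385, 12318, 8533 and 9654 barcodes. Of 32285 gene identifiers, 32158 matched GENCODE vM21 on GRCm38, the source of coordinates.

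Barcodes of at least 300 genes and 500 UMIs, with no more than 15% of UMIs mitochondrial, were kept as cells. Groups came from the sample titles. Library pairs shared 42 to 59 barcodes, 1 of them of a member. Scrublet in scanpy 1.11.5 marked 0 cells by its automatic threshold and so had not worked; scores above 0.2, found in 16 members, were left out as an alternative. The counts of a class were added up within each library and tested by the quasi-likelihood F test of edgeR 4.0.16 (R 4.3.3) after filterByExpr and TMM scaling, with p-values adjusted by Benjamini-Hochberg over all genes tested and called under 0.05. Shares had exact Clopper-Pearson intervals and two-sided exact permutation tests with scipy 1.17.1. Tests were tried on simulated data with 200 changed genes. Alternatives were DESeq2 1.42.0, RLE size factors, no filter on low counts, each library left out, other gates and a replicate block. Those without the Cxcl10, Thbs1, C1q and Cd209a limits, with few NK, B cell and neutrophil UMIs, or with unthinned cells of at least 5000 UMIs were chosen after seeing the data.

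Named genes were, between genotypes, the called genes and the 10 of smallest p with a mean of at least 20 CPM; between classes, the 15 largest changes each way at 50 CPM; along Ly6c2, the 10 largest each way at 20 CPM; and examples of each list by size of change, to which Cx3cr1, Ccr2, Bcl2, Plac8 and other genes were added after their values were seen. Some genes under these rules are not reported here. The members and lists were chosen with earlier results of these data known.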

Additional observations from a re-analysis of the deposited data

How the results depend on the processing

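With 2 libraries per genotype no share difference could reach a p under 0.33, and the members' 1836925 to 4954512 summed UMIs limit the genes tested between genotypes. The share of all cells differed by -2.66 points in unthinned cells of at least 5000 UMIs, -1.09 with the stricter gate, -3.26 without the Cxcl10 limit and -3.74 without the Thbs1, Cxcl10, C1q and Cd209a limits, and by -2.28 to -1.59 with 1 library left out. Among both monocyte gates it was -20.6 to -10.7 with 1 library left out.

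The count of genes changed between genotypes, 1 as reported, was 70 without a filter on low counts, 10 with DESeq2, 0 with few NK, B and neutrophil UMIs, 0 without the Cxcl10 limit and 10 to 33 with 1 library left out; 33 was the count without WT-1. With the stricter gate it was 1, Tnfaip6 in place of Il1r2. Sample numbers are shared only as labels: the deviations of same-numbered libraries correlated at -0.0719 over 5780 genes. With the replicate block 0 genes passed, and Il1r2 was at 1.63 (adjusted p = 0.215). There 390 genes had an unadjusted p under 0.05, no more than tests without any change would give. The interaction gave 32 genes without a filter, 1 with few NK, B and neutrophil UMIs and 0 to 18 with 1 library left out (18 without cKO-1). Against classical monocytes 1908 genes changed with DESeq2, in place of 3048. Along Ly6c2, 264 to 437 changed with 1 library left out, 264 without WT-2 and 303 without cKO-1. Under alternatives the named genes' values stayed on their side of the threshold, passed or not, 777 times, gained a call 33 times, lost one 15 times and turned 2 times, C3ar1 to -0.29 with the stricter gate and Gzmb to 0.040 with few NK, B and neutrophil UMIs. Every gained call was among the 11 genes named between the genotypes, and none was in a class or Ly6c2 comparison. Without cKO-2, Olr1 against macrophages was at 5.603 and Cadm1 at -5.92. Where a genotype was left with 1 library, that library was assumed to vary like the others. The cause of these moves was not tested, except that fewer cells or genes entered some fits.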
